A study of Mus musculus with 6 samples.

Results

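The genes described here make up the machinery that burns fatty acids in mitochondria. The 38 member genes were chosen by name, by their place in the pathway, out of 23276 gene symbols in the table. They fall into 7 steps: the carnitine shuttle with the enzymes that set its gate, the acyl-CoA dehydrogenases, the later steps of the cycle, the double bond enzymes with proteins that carry a hydratase domain, the electron transfer flavoprotein, the acyl-CoA synthetases and the acyl-CoA thioesterases. Every member had at least 1 row in the table.

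Whole-kidney RNA was sequenced from 6 mice, in 2 groups of 3. All 6 mice carried KspCre, a Cre recombinase under a promoter active in kidney tubule cells, and the *Pkd1* F/RC genotype, in which 1 allele is floxed and the other is a hypomorphic RC allele present in every cell of the animal. The 3 *Pkd1* F/RC DKO mice (double knockout) carried in addition 2 floxed alleles of the miR17~92 cluster, and the 3 *Pkd1* F/RC SKO mice (single knockout) did not. The sample labels gave the age of all mice as postnatal day 22. By design, recombination was limited to cells that express KspCre, and the RNA came from all cells of the kidney.

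The value used here was the authors' mean log2 CPM of each transcript over all 6 kidneys. CPM is a read count scaled to the size of the library. One mean covers both genotypes, so no level of a member in SKO or in DKO kidneys alone, no spread between mice and no test between the genotypes is given. The depth of each library is unknown, and no interval was set from it. In whole-kidney RNA, fewer cells of a type and less RNA per cell cannot be told apart.

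Fatty acids enter mitochondria as acyl-carnitines and are shortened there by rounds of oxidation, hydration, a second oxidation and thiolytic cleavage. Each round releases acetyl-CoA and passes electrons to the respiratory chain, in part through the electron transfer flavoprotein. In the kidney, cells of the proximal tubule depend on this pathway for most of their ATP, and the nuclear receptor PPARα is a known regulator of many of its genes.

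All 38 members had a mean of at least 1 CPM, compared with 55.9% of all gene symbols (13001 of 23276). With each gene represented by its row of highest level, the members' median was 36.6 CPM (5.19 on the log2 scale). The median was 2.36 CPM over all gene symbols and 12.6 CPM over symbols with at least 1 CPM. The members' median stood at percentile 89.4 of all gene symbols, and 30 of 38 members lay above the median of the symbols with at least 1 CPM. Of the members, 19 were among the highest 10% of all gene symbols, and 13 among the highest 10% of symbols with at least 1 CPM. Levels ran from 2.26 CPM for *Cpt1c* to 419 CPM for *Acsm2*. The 5 highest members in CPM, *Acsm2*, *Acadm*, *Cpt1a*, *Hadh* and *Hadha*, held 43.1% of the summed CPM of the members, and *Acsm2* alone held 18.9%.

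**Figure D1:**
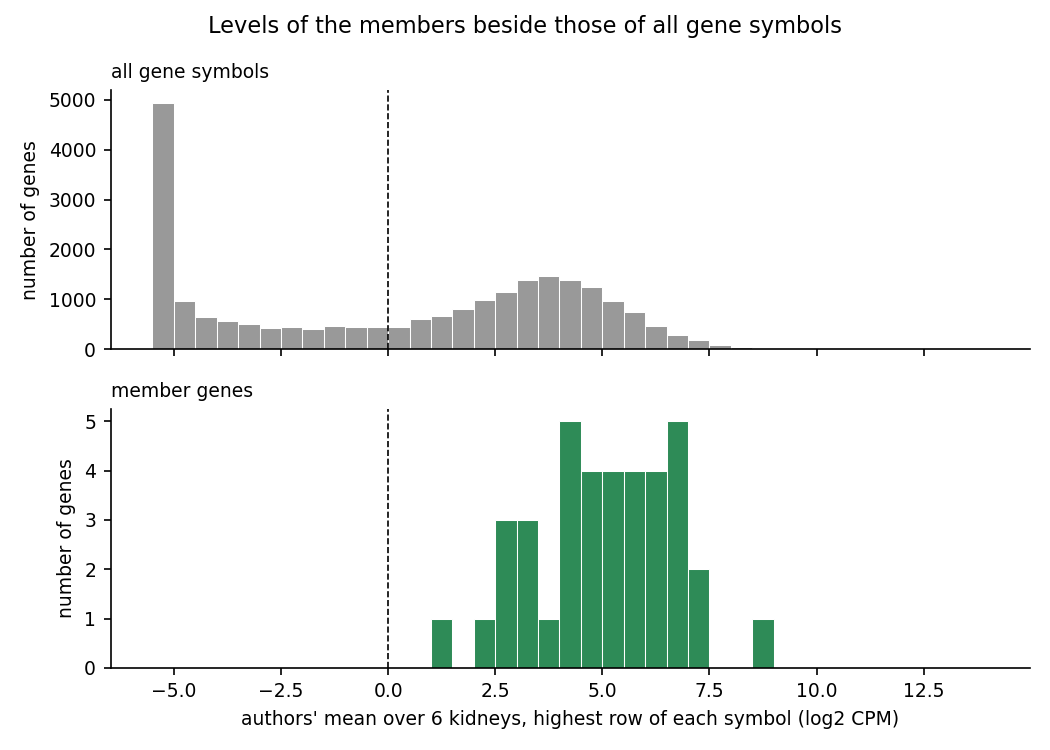
Number of genes (vertical axis) in bins of the authors' mean log2 CPM over 6 kidneys (horizontal axis), for all 23276 gene symbols (top) and for the 38 members (bottom), each gene by its highest row. The dashed line marks 1 CPM: all members lie to its right, while many gene symbols lie to its left.

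A longer transcript collects more reads, so levels were compared between genes per kilobase (kb). Each used a RefSeq row and the length of the GENCODE transcript matched to it. Per kb of transcript the members' median was 14.3 CPM, beside 4.06 CPM per kb over the 12499 symbols that had a length and at least 1 CPM. By this measure 31 of 38 members lay above that median. The order of level per kb opened with *Acsm2* (204 CPM per kb), *Etfb* (83.1), *Acadm* (79.4), *Acot13* (74.5) and *Etfa* (70.3). It closed with *Acad10* (2.55 CPM per kb), *Acacb* (1.88), *Acsm3* (1.70), *Acad12* (0.82) and *Cpt1c* (0.81). With the shortest GENCODE length matched to its RefSeq rows, *Acsm2* stood 2.46-fold above the next member. With the longest, whose row held no more CPM, it stood at 0.75 of the level of *Etfb*. *Etfb*, *Acadm*, *Acot13*, *Etfa* and *Hadh* followed each other at steps of 1.07-fold or less. At the low end, with RefSeq rows, the gap from *Acsm3* to *Acad12* was 2.08-fold and that from *Acad12* to *Cpt1c* was 1.02-fold. Without values of single kidneys, none of these gaps could be set against the spread between mice.

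**Figure D2:**
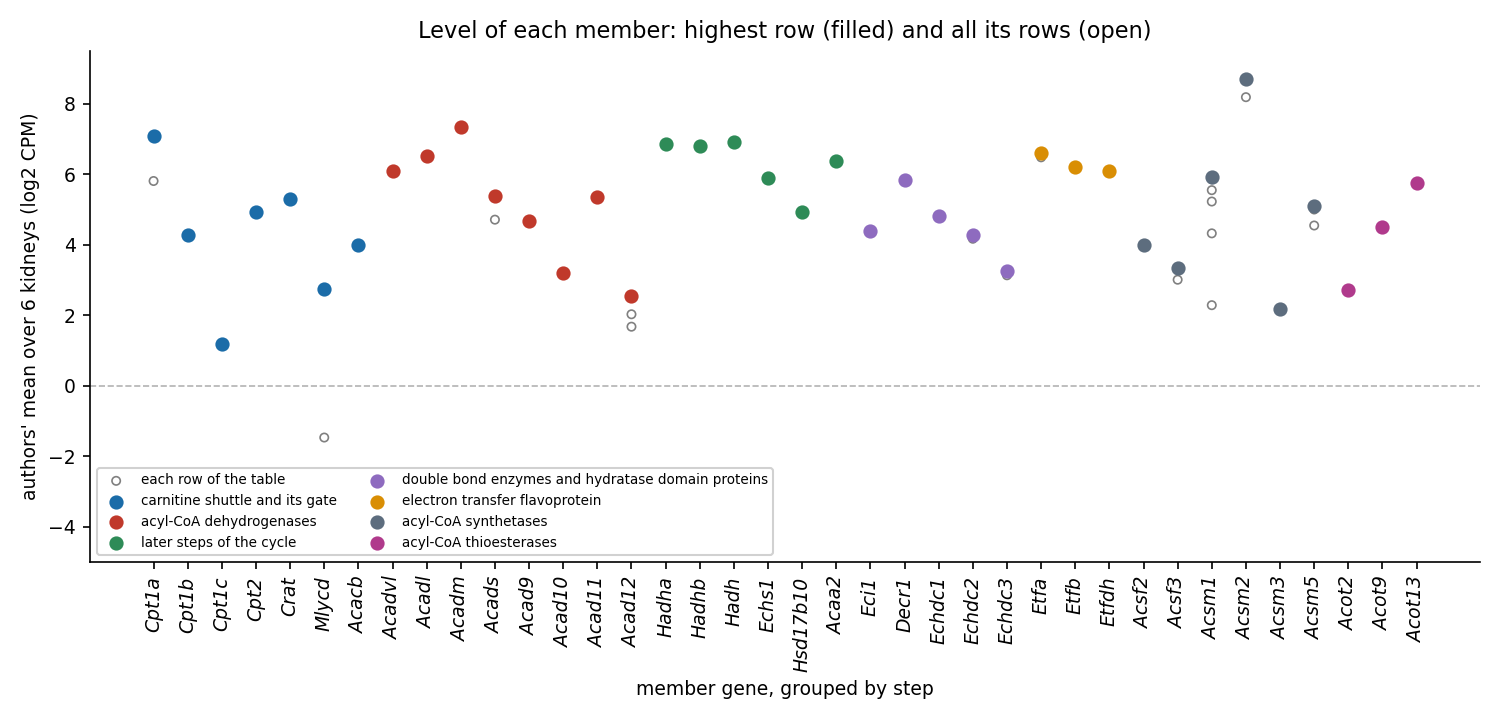
Authors' mean log2 CPM over 6 kidneys (vertical axis) of the 38 members, grouped by step along the horizontal axis. Filled points are the highest row of each gene, open points are all its rows, and the dashed line marks 1 CPM. *Acsm2* is the highest member and *Cpt1c* the lowest, and a row of *Mlycd* is the only one under the line.

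The carnitine shuttle was represented at its entry mainly by the liver form of its first enzyme. *Cpt1a*, which joins long-chain fatty acids to carnitine at the outer mitochondrial membrane and sets the pace of entry, was at 137 CPM (31.7 CPM per kb). *Cpt1b*, the form of muscle, was at 19.4 CPM (6.70 CPM per kb). *Cpt1c*, the form of the brain, was at 2.26 CPM (0.81 CPM per kb). The level of *Cpt1a* per kb was thus 4.73-fold that of *Cpt1b* and 39.2-fold that of *Cpt1c*, and per kb of coding sequence 7.04-fold and 62.5-fold. The 4 markers of heart and skeletal muscle examined (*Myh6*, *Myh7*, *Ckm* and *Acta1*) lay between 0.0573 and 0.171 CPM, at or near 0, beside the 19.4 CPM of *Cpt1b*.

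*Cpt2*, which returns the acyl group to CoA inside the mitochondrion, was at 30.5 CPM (12.8 CPM per kb), so that *Cpt1a* stood 2.47-fold above it per kb of transcript and 3.82-fold per kb of coding sequence. *Crat*, which moves acetyl groups between CoA and carnitine, was at 39.1 CPM (10.2 CPM per kb). *Slc25a20*, the carrier that exchanges acyl-carnitine for carnitine across the inner membrane and no member of the list, was at 25.6 CPM (14.4 CPM per kb), close in level per kb to *Cpt2*. The gate of the shuttle is malonyl-CoA, which inhibits the first enzyme. *Acacb*, which makes malonyl-CoA at the mitochondrial surface, was at 16.01 CPM, but its transcript is the longest of the members at 8482 bases and its level per kb was 1.88 CPM. *Mlycd*, which breaks malonyl-CoA down, was at 6.74 CPM (3.17 CPM per kb). *Acaca*, the cytosolic counterpart of *Acacb*, was at 2.02 CPM per kb, 1.08-fold the level of *Acacb*.

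The acyl-CoA dehydrogenases carry out the first oxidation, each for a range of chain lengths. Per kb of transcript the level was highest for the medium-chain enzyme *Acadm* (163 CPM, 79.4 CPM per kb), followed by the long-chain enzyme *Acadl* (90.9 CPM, 47.5 CPM per kb). The very long-chain enzyme *Acadvl* was at 67.5 CPM (31.1 CPM per kb). The short-chain enzyme *Acads* was lowest of the 4, with 26.1 CPM in its RefSeq row (13.98 CPM per kb). *Acadm* therefore stood 1.67-fold above *Acadl*, 2.55-fold above *Acadvl* and 5.68-fold above *Acads* per kb. With the highest row of *Acads*, an assembled one, over the same length (22.2 CPM per kb) the last ratio was 3.58.

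The other 4 genes of this family were lower per kb than *Acads*. *Acad11* was at 41.0 CPM (11.9 CPM per kb), and *Acad9*, whose protein also serves in the assembly of respiratory complex I, was at 25.5 CPM (6.5 CPM per kb). *Acad10* was at 9.24 CPM (2.55 CPM per kb). *Acad12* was at 5.79 CPM in its highest row and 3.19 CPM in its RefSeq row (0.82 CPM per kb, or 1.49 with the highest row over the same length). *Acad10* and *Acad12* lie beside each other on chromosome 5, within 63.7 kb.

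The promoter window of *Acadm*, shown because it is the dehydrogenase with the highest level and holds the 6 bases that single nuclear receptors recognise, lies on the minus strand of GRCm38.p6 at chr3:153944594-153944893. It runs from 250 bases before to 50 bases after the start annotated by RefSeq. Capitals mark its 1 match to AGGTCA, here on the opposite strand.
Acadm: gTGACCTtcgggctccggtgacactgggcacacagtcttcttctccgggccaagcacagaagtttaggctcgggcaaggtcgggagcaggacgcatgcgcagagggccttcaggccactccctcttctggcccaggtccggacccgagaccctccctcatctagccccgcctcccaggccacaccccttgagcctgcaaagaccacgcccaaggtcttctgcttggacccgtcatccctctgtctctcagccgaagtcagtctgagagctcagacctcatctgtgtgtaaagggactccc

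The later steps of the cycle were the most even of the larger groups. Their 6 genes spanned 29.0 to 67.7 CPM per kb of transcript, with a median of 46.2, against 0.82 to 79.4 over the 8 dehydrogenases. *Hadha* and *Hadhb* encode the 2 subunits of the trifunctional protein of the inner membrane, which handles long chains. *Hadha* was at 116 CPM (29.0 CPM per kb) and *Hadhb* at 110 CPM (54.2 CPM per kb). Their levels in CPM were close, while per kb *Hadhb* was 1.87-fold higher, since the *Hadha* transcript has 4017 bases and that of *Hadhb* 2033. Per kb of coding sequence the ratio was 1.52.

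The matrix enzymes for shorter chains ranged from 31.8 to 67.7 CPM per kb. *Hadh*, the hydroxyacyl-CoA dehydrogenase, was at 121 CPM (67.7 CPM per kb). *Echs1*, the short-chain hydratase, was at 59.4 CPM in its highest row and 38.1 CPM per kb. *Acaa2*, the thiolase that closes the round, was at 82.7 CPM and 54.6 CPM per kb, 1.01-fold the level of *Hadhb*. *Hsd17b10*, a hydroxyacyl-CoA dehydrogenase that also acts on branched-chain substrates, was lowest in CPM of these genes at 30.6, but its transcript has only 962 bases and its level per kb was 31.8 CPM. *Acat1*, a mitochondrial thiolase for short acetoacetyl-CoA and no member of the list, was at 45.5 CPM per kb.

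*Hadha* and *Hadhb* are transcribed away from each other on chromosome 5. The start of the *Hadha* transcript lay at 30155162 on the minus strand and that of *Hadhb* at 30155248 on the plus strand, 86 bases apart. These are the starts of the GENCODE transcripts, and both fall in the promoter window of *Hadhb* at chr5:30155003-30155302 of GRCm38.p6, plus strand, which is shown as an example of a CpG-rich window. The start of *Hadha* annotated by RefSeq, at 30154980, lies outside it. Capitals mark its 24 CG dinucleotides.
Hadhb: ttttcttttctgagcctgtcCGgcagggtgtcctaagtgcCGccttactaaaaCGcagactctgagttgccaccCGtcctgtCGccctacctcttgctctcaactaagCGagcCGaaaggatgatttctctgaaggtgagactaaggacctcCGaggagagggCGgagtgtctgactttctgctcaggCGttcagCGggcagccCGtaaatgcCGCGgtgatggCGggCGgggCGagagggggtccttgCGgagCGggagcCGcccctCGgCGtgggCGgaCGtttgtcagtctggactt

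The enzymes that deal with double bonds of unsaturated chains were at intermediate levels. *Decr1*, the dienoyl-CoA reductase, was at 57.03 CPM (19.3 CPM per kb), and *Eci1*, the enoyl-CoA isomerase, was at 21.0 CPM (18.4 CPM per kb). Per kb of transcript these 2 differed by 1.04-fold, while per kb of coding sequence *Decr1* was 2.35-fold higher, since only 33.96% of its transcript is coding. *Eci2*, the second isomerase and no member of the list, was at 14.1 CPM per kb. Among the proteins with a hydratase domain, *Echdc1* was at 28.3 CPM (7.33 CPM per kb), *Echdc2* at 19.2 CPM (14.7 CPM per kb) and *Echdc3* at 9.49 CPM (5.13 CPM per kb). A second RefSeq row of *Echdc1*, matched to a GENCODE length of 1845 bases, was at 27.9 CPM, close to the first. Its 15.1 CPM per kb were 2.06-fold the level per kb of the first and above that of *Echdc2*. This difference between the 2 rows comes from their matched lengths. The protein of *Echdc1* is a decarboxylase of the cytosol that removes ethylmalonyl-CoA.

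The electron transfer flavoprotein had the highest median level per kb of the 7 steps, at 70.3 CPM per kb over its 3 genes. *Etfa* and *Etfb* encode the 2 subunits of the carrier that takes electrons from the dehydrogenases. *Etfa* was at 97.9 CPM (70.3 CPM per kb) and *Etfb* at 74.2 CPM (83.1 CPM per kb). The ratio of *Etfb* to *Etfa* was 1.18 per kb of transcript and 0.99 per kb of coding sequence. *Etfdh*, which passes the electrons on to ubiquinone, was at 68.0 CPM (28.6 CPM per kb), and *Etfa* stood 2.46-fold above it per kb. Together with the 6 genes of the later steps, all 9 genes of these 2 steps were among the 15 highest members per kb.

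The acyl-CoA synthetases, which activate fatty acids by joining them to CoA, showed the widest range. *Acsm2*, an activating enzyme for medium chains, was at 419 CPM (204 CPM per kb). This level per kb was 5.74-fold that of *Acsl1*, a synthetase for long chains. *Acsl1* is no member of the list and was at 139 CPM (35.6 CPM per kb). *Acsm1* was at 60.04 CPM in its highest row, with 46.7 CPM in its RefSeq row (22.4 CPM per kb). *Acsm5* was at 34.3 CPM in its highest row, with 23.3 CPM in its RefSeq row (7.82 CPM per kb). *Acsm3* was at 4.52 CPM (1.70 CPM per kb). With the shortest length matched to its RefSeq rows, used here, *Acsm2* stood 9.12-fold above *Acsm1*, 26.2-fold above *Acsm5* and 120-fold above *Acsm3* per kb. With the longest matched length, whose row held no more CPM, its level was 62.2 CPM per kb. These ratios were then 2.78, 7.96 and 36.5, and that to *Acsl1* was 1.75. The 4 genes lie within 268 kb of each other on chromosome 7, from 119519463 to 119787513. *Acsm4*, the remaining gene of the family looked up and no member of the list, was at the lowest level the table lists. *Acsf2*, a synthetase of the same wider family, was at 15.9 CPM (5.05 CPM per kb). *Acsf3*, which activates malonate for fatty acid synthesis in the mitochondrion, was at 10.1 CPM (4.56 CPM per kb).

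The promoter windows of *Acsm2* and *Acsm5* are shown because they are poor in CG dinucleotides, in contrast to that of *Hadhb*. They lie on the plus strand of GRCm38.p6 at chr7:119561458-119561757 and chr7:119526015-119526314. Capitals mark the CG dinucleotides, 4 in the window of *Acsm2* and 1 in that of *Acsm5*.
Acsm2: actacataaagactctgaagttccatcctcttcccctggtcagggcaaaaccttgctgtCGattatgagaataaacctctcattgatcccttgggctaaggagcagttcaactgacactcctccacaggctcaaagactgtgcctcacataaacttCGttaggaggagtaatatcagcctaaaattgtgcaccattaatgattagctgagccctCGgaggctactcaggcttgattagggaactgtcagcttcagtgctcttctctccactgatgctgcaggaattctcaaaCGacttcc
Acsm5: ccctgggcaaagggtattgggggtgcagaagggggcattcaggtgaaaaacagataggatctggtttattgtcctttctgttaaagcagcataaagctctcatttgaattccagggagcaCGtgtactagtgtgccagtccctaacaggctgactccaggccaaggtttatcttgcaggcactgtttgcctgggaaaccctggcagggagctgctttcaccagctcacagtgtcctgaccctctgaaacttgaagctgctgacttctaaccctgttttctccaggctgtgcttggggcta

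The thioesterases release fatty acids from CoA again. *Acot13*, which is associated with mitochondria, was at 53.7 CPM, and with a transcript of 721 bases its level per kb was 74.5 CPM. *Acot9* was at 22.6 CPM in its highest row (12.7 CPM per kb) and *Acot2* at 6.57 CPM (2.99 CPM per kb). Per kb *Acot13* stood 24.9-fold above *Acot2* and 5.87-fold above *Acot9*. *Acot1*, a cytosolic relative of *Acot2* that shares sequence with it, was at 2.53 CPM per kb.

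The order of the members was similar with either length. Per kb of coding sequence the same 10 genes were the 10 highest, 10 of 38 members held the same rank and 30 were within 2 ranks. The exceptions with the largest moves were *Echdc1*, which rose by 9 ranks, and *Decr1*, which rose by 5. Coding sequence makes up 25.1% of the longer transcript of *Echdc1*, on which its rank per kb rests, and 33.96% of that of *Decr1*. The row of *Echdc1* matched to the shorter transcript was at 27.9 CPM beside 28.3, and at 15.1 CPM per kb beside 7.33. The ratio of the highest to the lowest member was 253 per kb of transcript and 256 per kb of coding sequence.

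**Figure D3:**
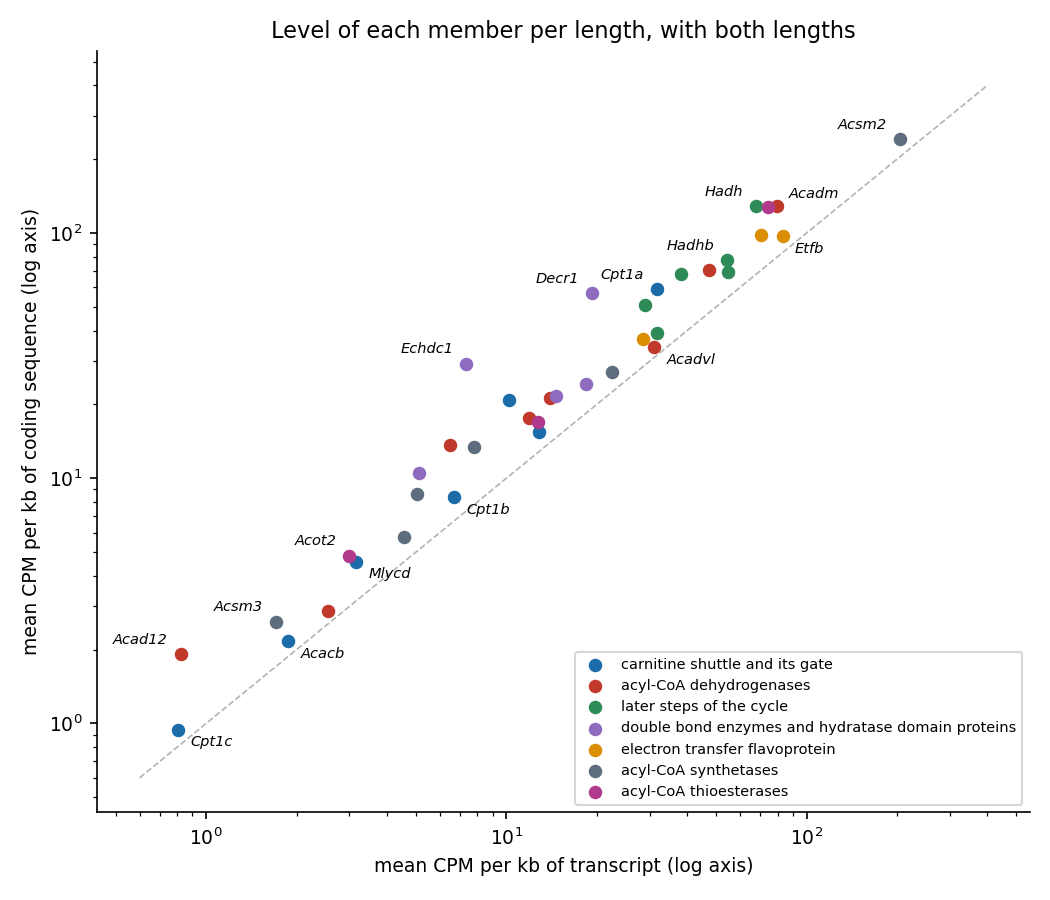
Mean CPM per kb of coding sequence (vertical axis, log scale) against mean CPM per kb of transcript (horizontal axis, log scale) for the 38 members, coloured by step. The dashed line marks equal values. *Decr1* and *Echdc1* lie farthest above it, and *Acsm2* is highest on both axes.

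In the table a gene could have several rows, 1 for each RefSeq transcript and 1 for each transcript assembled from the reads. The members had 83 rows, 45 of them RefSeq mRNAs and 37 assembled. A single row was listed for 15 members and more than 1 for 23. In 18 of these 23 the highest and the second row differed by less than 0.1 on the log2 scale, and in 13 all rows did. For 10 members the highest row was an assembled one. The CPM of all rows of the table summed to 1007270 and those of the highest row of each symbol to 370295, so levels in CPM are relative to a total that holds every row of a gene.

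The widest gap between the highest and the second row was that of *Mlycd*, whose RefSeq row was at 6.74 CPM and whose assembled row was at 0.36 CPM, a difference of 4.22 on the log2 scale. For *Acads* the assembled row was at 41.5 CPM and the RefSeq row at 26.1 CPM, a difference of 0.67. For *Acad12* the 2 assembled rows were at 5.79 and 4.07 CPM and the RefSeq row at 3.19 CPM, the first 2 differing by 0.51. *Acsm1* had the most rows, 8, which ran from 4.87 to 60.04 CPM. The 3 RefSeq mRNAs of *Acsm2* were at 419 CPM each, although the GENCODE lengths matched to them ran from 2051 to 6738 bases. For the longest length the level per kb was 62.2 CPM, below that of *Etfb* and *Acadm*. Its row held no more CPM than that of the shortest, so this lower value comes from the length alone. With the other lengths, at 204 and 200 CPM per kb, *Acsm2* was the highest member. The bases added by the longest length thus brought no added CPM, and whether the counting covered them was not tested.

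For 51-base reads it matters whether a stretch of the transcript also occurs in another gene. Of all 51-base windows in the members' transcripts, none was shared with another annotated gene in 20 of 38 members, *Acsm2*, *Cpt1a*, *Hadh* and *Acadl* among them. In 9 members windows were shared with a gene that overlaps the member. The share was 93.0% for *Cpt1b*, whose partner *Gm44502* is annotated on the same strand over the whole gene. It was 85.8% for *Echdc1*, mainly with *Rnf146* on the opposite strand, and 67.3% for *Etfb* with *Gm45233* on the same strand. *Acsm3* shared 28.0% with *Eri2* and *Acadvl* 23.6% with *Dvl2*, both on the opposite strand. The libraries kept the strand, but whether counting used it was not stated in the sources used here. Where the partner is on the opposite strand, reads of such stretches cannot be told apart without strand. Where it is on the same strand, as for *Cpt1b* and *Etfb*, strand cannot tell them apart either, so these levels are uncertain too.

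In 10 members windows were shared with a gene elsewhere in the genome, and in 6 of them with over 10% of their windows. *Hadhb* shared 62.7% with 2 genes, *Gm13910* and *Gm9108*. *Acsf2* shared 36.8% with *Gm5540*. *Acot2* shared 27.4% with other genes, led by *Acot1*. *Acad10* shared 21.4% of its windows with *Acad12*, which in turn shared 20.4% of its own, mainly with *Acad10*. *Acot9* shared 19.5%, mainly with *Acot10*. The authors discarded alignments with a mapping quality under 10, which can remove reads that align equally well in 2 places. The levels of these 6 genes are therefore uncertain, and how many of their reads were removed was not tested.

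**Figure D4:**
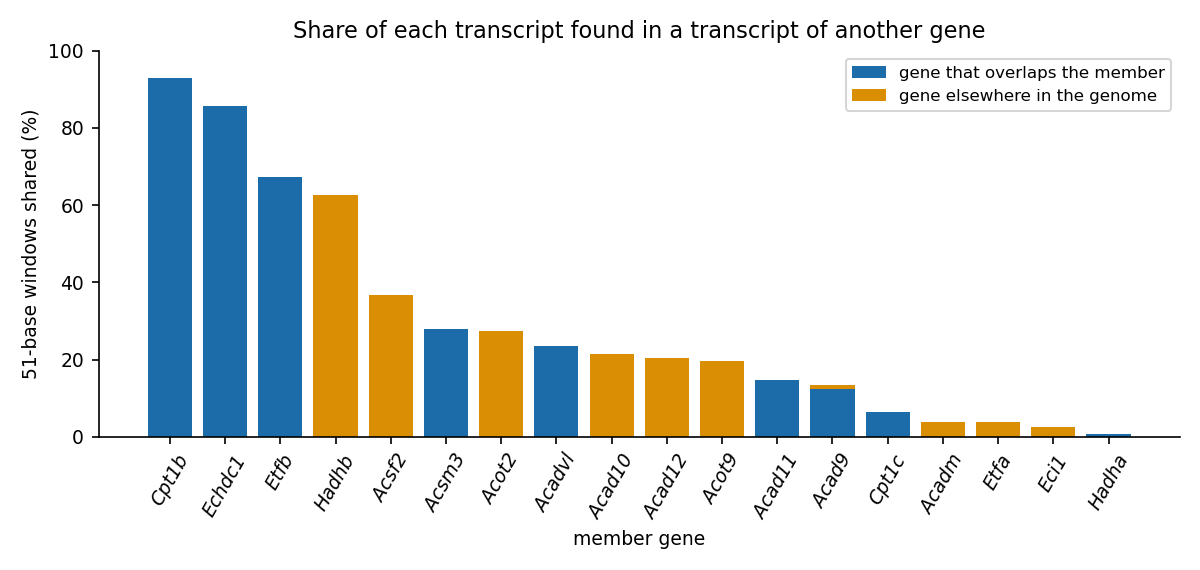
Percentage of the 51-base windows of a member's transcript (vertical axis) that also occur in a transcript of another annotated gene, for the 18 members with any (horizontal axis). Blue marks partners that overlap the member and orange partners elsewhere. The shares run from 0.63% for *Hadha* to 93.0% for *Cpt1b*.

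The members are spread over 17 chromosomes, with 7 on chromosome 7 and 6 on chromosome 5. Besides *Hadha* and *Hadhb*, the members *Crat*, *Acad10*, *Acad11* and *Acot13* have a protein-coding neighbour transcribed away from them within 1000 bases. These 6 members include the closest such pair, *Acad10* and *Brap*, whose genes lie 48 bases apart.

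A promoter window from RefSeq could be matched to 32 members. The remaining 6 were *Cpt1b*, *Crat*, *Acad9*, *Acaa2*, *Decr1* and *Acot13*. In 31 of the 32 the annotated start lay within 100 bases of the 5′ end of the transcript used for length, and for *Hadha* it lay 182 bases away. The CpG ratio, the number of CG dinucleotides over the number that the C and G content would give, was at least 0.6 in 17 of 32 members (53.1%). Over 9384 gene symbols with a window and at least 1 CPM the share was 72.6%, and over all 14924 symbols with a window it was 51.9%. The members' median ratio was 0.64, beside 0.77 over the symbols with at least 1 CPM. The lowest ratios were those of *Acsm5* (0.051), *Acsm1* (0.107), *Acsm2* (0.25), *Echdc3* (0.37) and *Acsm3* (0.40), so that all 4 *Acsm* members were among the 5 lowest. The highest were those of *Acad10* (1.02), *Acad12* (0.96) and *Acadl* (0.93). Members far apart in level could share a low or a high ratio. *Acsm2* (204 CPM per kb) and *Acsm3* (1.70) both had low ratios, and *Acadl* (47.5) and *Acad12* (0.82) both had high ones. A relation of ratio to level over the 32 members was not tested.

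**Figure D5:**
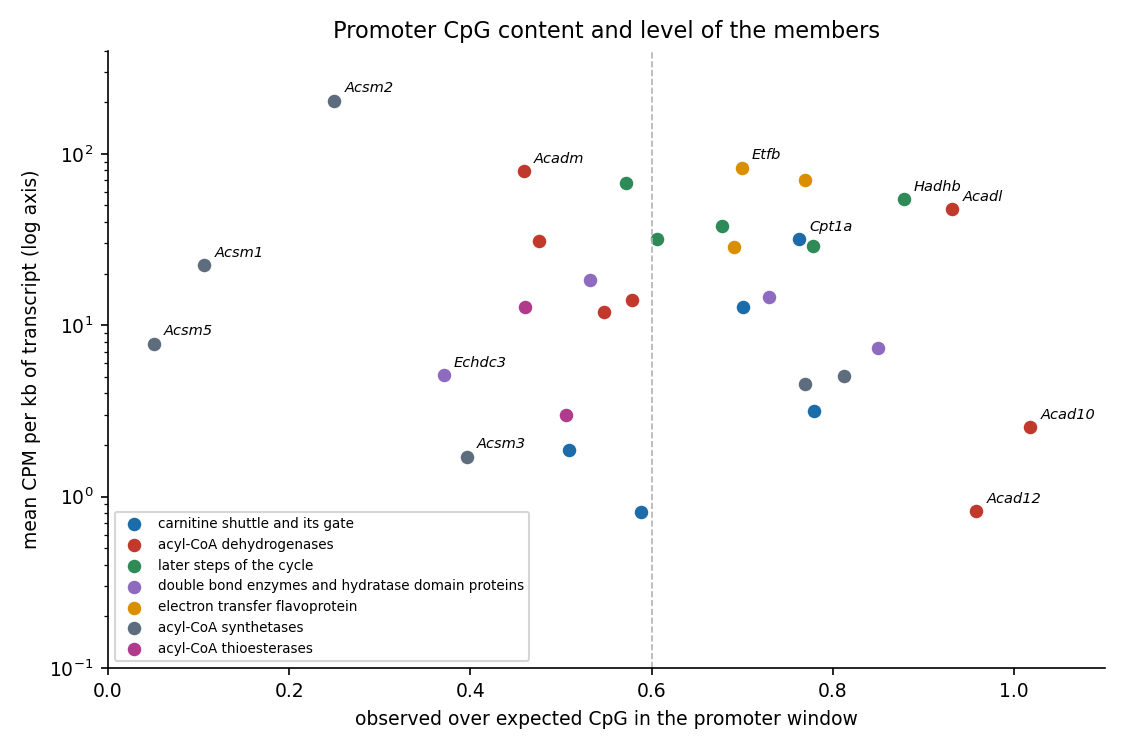
Mean CPM per kb of transcript (vertical axis, log scale) against the CpG ratio of the promoter window (horizontal axis) for 32 members, coloured by step. The dashed line marks a ratio of 0.6. The 4 *Acsm* genes lie to the left, and *Acad10* and *Acad12* are lowest in level on the far right.

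Motifs were sought on both strands of the windows, with N standing for any base. AGGTCA, the 6 bases to which 1 nuclear receptor binds, was found in 8 of 32 members (25%) and in 12% of the 9384 windows. The 8 were *Cpt1a*, *Cpt1c*, *Acacb*, *Acadvl*, *Acadm*, *Echs1*, *Echdc3* and *Acsm1*. AGGTCANAGGTCA, 2 such stretches 1 base apart in the arrangement known for PPARα with RXR, was found in none, beside 0.032% of the windows. TNAAGGTCA, known for estrogen-related receptors, was found in none, beside 0.72%. Both of these hold AGGTCA, so their matches are a part of its matches. GCGCATGCGC, known for NRF1, was found in *Acad10*, *Acad12* and *Etfdh* (9.38% of 32), beside 2.16% of the windows. CCAAT was found in 17 members (53.1%, beside 38.3%), GGGCGG in 18 (56.3%, beside 65.7%), TATAAA in 2 (6.25%, beside 6.98%) and TGACGTCA in none (beside 3.22%). Over all 14924 windows, GGGCGG was in 49.9%, below the share of the members, while the other motifs kept their direction. All counts here are matches of letters in windows of 300 bases and no evidence of binding.

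The DKO mice carry floxed alleles of a cluster that encodes 6 miRNAs. They are shown because their seeds, bases 2 to 8, set the sequence sought in the members. Capitals mark the seed. The sequences are those of RefSeq, and miR-17 and miR-20a share 1 seed, as do miR-19a and miR-19b, while miR-18a and miR-92a have seeds of their own.
miR-17-5p: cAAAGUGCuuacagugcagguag
miR-20a-5p: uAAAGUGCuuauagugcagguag
miR-18a-5p: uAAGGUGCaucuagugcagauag
miR-19a-3p: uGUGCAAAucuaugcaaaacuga
miR-19b-3p: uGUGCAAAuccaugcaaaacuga
miR-92a-3p: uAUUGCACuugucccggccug

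A match to 1 of the 4 seeds was found in the 3′-UTR of 6 of 38 members, and 32 members had none. The share of all symbols with a match to any of the 4 was not counted, so only single seeds are set beside a background. The seed of miR-17 and miR-20a (GCACTTT) was matched in *Decr1* and *Acsf2*, 5.26% of members, beside 13.7% of 12400 symbols with at least 1 CPM. That of miR-18a (GCACCTT) was matched in *Acad12*, 2.63% beside 8.61%. The seed of miR-19a and miR-19b (TTTGCAC) was matched in *Acacb*, *Acadm* and *Hadha*, 7.89% beside 12.1%, and that of miR-92a (GTGCAAT) in no member, beside 7.06%. The 3′-UTRs of the members were short, with a median of 543 bases beside 1030. Per kb of 3′-UTR the members held 0.072 matches for miR-17 beside 0.106, and 0.144 for miR-19 beside 0.092, a value that rests on 4 matches in 3 genes.

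The matches in *Acadm* and *Hadha* are shown since these were among the 5 members with the highest CPM, and that in *Decr1* since it is 1 of the 2 for miR-17. Capitals mark the bases that pair with the seed. The match in *Acadm* lies at position 441 of a 3′-UTR of 574 bases (chr3:153922484-153922490, minus strand) and is followed by A. Those in *Hadha* lie at positions 188 and 335 of 1511 bases (chr5:30119621-30119627 and chr5:30119474-30119480, minus strand), and that in *Decr1* at position 1308 of 1795 bases (chr4:15917721-15917727, minus strand).
Acadm, miR-19: atttgctttgtTTTGCACaaaagagtaa
Hadha, miR-19, first: tgaattaactgTTTGCACttcatgttaa
Hadha, miR-19, second: taagggcatttTTTGCACcaagccaaac
Decr1, miR-17: actataatcttGCACTTTtgagaaccaa

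Other genes of the pathway were examined as a list of 20, of which 19 had at least 1 CPM. The exception was *Acsl6* at 0.0897 CPM. Their median level per kb was 13.8 CPM, beside 14.3 for the members. Of the 12 genes for transport, activation and control, *Slc22a5*, the carnitine transporter of the plasma membrane, was at 53.0 CPM (17.3 CPM per kb). *Ppara*, which encodes PPARα, was at 45.6 CPM (13.4 CPM per kb), and its coactivator *Ppargc1a* was at 75.1 CPM (11.6 CPM per kb). Among genes of peroxisomal oxidation, which shortens very long chains, *Hsd17b4* was at 82.5 CPM (30.8 CPM per kb), *Ehhadh* at 56.3 CPM (18.9 CPM per kb) and *Acaa1a* at 13.0 CPM (7.38 CPM per kb).

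The tissue label was checked against markers. The 6 markers of the proximal tubule lay between 108 CPM (*Slc5a2*) and 1030 CPM (*Slc34a1*), and *Umod*, of the thick ascending limb, was at 1022 CPM. Of other tissues that oxidise or store fat, 3 markers of liver lay between 1.4 CPM (*Apoa1*) and 18.2 CPM (*Ttr*), with *Ttr* and *Alb* (13.4 CPM) above the median of symbols with at least 1 CPM. The others were at 2.14 to 5.82 CPM for 3 of adipose tissue and 0.0352 to 0.89 CPM for 3 of the adrenal gland. Of 3 blood markers, *Hba-a1* was at 72.9 CPM and *Alas2* at 20.1 CPM, and *Hbb-bt* had no row. The part of other tissues in the levels of the members was not tested. *Pkd1* was at 31.8 CPM and *Mir17hg*, the host transcript of the cluster, at 4.21 CPM, but as means over both genotypes these values do not check the genotype labels.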

How the data were processed

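Total RNA of 3 SKO and 3 DKO kidneys was made into strand-specific libraries and read as 51 bp single-end reads. Per the study's methods, reads were trimmed and mapped to mm10 with TopHat (2.0.12 in the submitters' processing notes), and alignments with a mapping quality under 10 were discarded. The authors compared the groups with edgeR (3.2.4 in the notes). The notes also name Cufflinks, featureCounts and Subread 1.4.6, whose roles are not given in the sources used here. The deposited table of 54721 transcripts holds the authors' mean log2 CPM over the 6 kidneys, used here as the authors' mean. Its other 4 columns hold the authors' comparison of the groups (log2 fold change, likelihood ratio statistic, p-value and adjusted p-value) and were not used. The planned quasi-likelihood test of DKO against SKO needs counts of single kidneys and was not run, so the members' difference between genotypes is not reported here.

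A gene was represented by its row with the highest level. Levels per kb used the RefSeq mRNA row and the length of the GENCODE vM21 transcript matched to its accession (GRCm38, the assembly of mm10). Where several matched, the longest coding one was taken. This length can differ from that of the RefSeq transcript counted. Level summaries and the motif search were tested on simulated data. Promoter windows and miRNAs came from RefSeq, and 3′-UTRs from GENCODE. One gene of the wider pathway list is not reported here. All members are named, by a rule that lists them by step. The members and gene lists were chosen with earlier results of these data known. Groups followed the genotype labels. Python 3.11.15, numpy 2.4.6 and pandas 2.3.3 were used.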

Additional observations from a re-analysis of the deposited data

How the results depend on the processing

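The values moved with how several rows of a gene were combined, with the symbols taken for the percentile and with the length used. Rows of 1 gene can have nearly the same level, as the 3 RefSeq rows of *Acsm2* did at 419 CPM, so a sum over rows also grows with their number. With the CPM of all rows of a symbol summed, the members' median was 5.82 on the log2 scale (5.19 with the highest row) and its percentile 84.9 (89.4). The share of the 5 highest members was 58.7% (43.1%) and the median per kb 28.8 CPM (16.6 CPM when the highest row is divided by the matched length). With RefSeq mRNA rows only these were 4.93, percentile 86.1, 44.0% and 14.3 CPM per kb. With the median over rows they were 5.04, percentile 88.9, 43.8% and 16.1 CPM per kb. Among symbols with at least 1 CPM the percentile was 81.1. With the highest row divided by coding length the median was 26.7 CPM per kb, while the values per kb of coding sequence in the text use RefSeq rows. The values per kb in the text divide the level of the RefSeq row by the GENCODE length matched to that same row. This gave a median of 14.3 CPM per kb and was chosen after seeing the data. All 38 members had at least 1 CPM under each way of combining rows, and 36 had at least 5 CPM. The alternatives of the genotype comparison (DESeq2, other size factors, no filter on low counts, leaving out kidneys) were not run, since they need counts of single kidneys. No paired analysis was possible because the result comes from no test. Depth per library is unknown, and no error of a level is given.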
